A study of Mus musculus with 24 samples.

Results

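The wild-type (WT) maternal-fetal interface of the mouse was compared between gd19.5 (gd, gestation day), just before birth, and gd16.5, with 3 RNA-seq libraries at each stage. These 6 libraries were chosen by their labels, as the WT samples of both stages, out of 24 libraries that also cover gd10.5, gd14.5 and *C1qtnf6*-KO animals. All animals were on the C57BL/6 background, and for the WT mice the labels name no engineered allele and no treatment. *C1qtnf6*-KO mice, which lack the gene for the secreted C1q/TNF-related protein CTRP6 and come from 1 commercial line (C57BL/6JCya), were used only as a second genotype at the same 2 stages. The tissue was labelled maternal-fetal interface, and the study's methods name placentae as the source of the RNA. No label tied a library to a dam, litter or collection date, so the p-values measure the spread between these libraries, which may share a litter. The question was which genes and functions change at the interface as birth approaches.

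The mouse interface is built from the maternal decidua and the fetal placenta. Trophoblast cells of the junctional zone and giant cells secrete hormones of the prolactin family and pregnancy-specific glycoproteins into the mother. In the labyrinth, fetal capillaries and a syncytium of fused trophoblast exchange gases and nutrients with maternal blood, and the decidua holds uterine natural killer (NK) cells, whose granules contain perforin and granzymes and whose numbers are known to peak around mid-gestation. Towards term, placental growth slows and prostaglandin and cytokine signalling in uterine tissues precedes labour.

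The 6 libraries held 22204068 to 27138870 reads counted in genes. Of 55401 annotated genes, 17269 passed the filter on low counts and were tested. The trophoblast hormone placental lactogen II (*Prl3b1*) was abundant at both stages. It had 14026, 14951 and 10615 CPM (reads scaled to library size) at gd16.5 and 12379.9, 13746 and 17153 CPM at gd19.5. All 28 listed decidual genes passed the filter and were tested, which shows that they were detected, not that they were abundant. WT gd16.5 replicate 1 stood apart in genes of yolk sac endoderm, whose summed level was 10083, 918 and 871 CPM in gd16.5 replicates 1 to 3 and 872, 794 and 1066 CPM at gd19.5. The alpha-fetoprotein gene *Afp* had 4264, 92.9 and 36.9 CPM at gd16.5 and 86.5, 72.0 and 155 CPM at gd19.5, and none of the 23 yolk sac genes tested passed the test (1 without gd16.5 replicate 1 and 2 without gd16.5 replicate 3). Their median log2 fold change of -2.47 became 0.30 without gd16.5 replicate 1. Summed Y-linked transcripts were at 89.2 CPM in gd16.5 replicate 1, 162 CPM in gd19.5 replicate 2 and at most 0.918 CPM in the other 4 libraries, so libraries of 1 stage differed in Y-linked content. Nuclear-retained RNAs were higher at gd19.5, with summed levels of 827, 627 and 517 CPM at gd16.5 and 999, 1019 and 1013 CPM at gd19.5. *Neat1* (0.84 on the log2 scale, adjusted p = 0.0147) and *Malat1* (0.66, adjusted p = 0.0160) passed the test among 7 such RNAs, against 7.23% of all genes tested, and 5 passed without gd16.5 replicate 1, 1 without gd19.5 replicate 2 and 0 without gd19.5 replicate 3. How far these library differences account for the gene results was not tested. Refits with a Y-linked covariate or without single libraries are given below.

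At gd19.5, 218 genes were higher and 150 lower than at gd16.5 among the differentially expressed genes (DEGs), genes that passed an adjusted p of 0.05 and changed by more than 1 on the log2 scale. These were 2.13% of the genes tested, with 1.26% higher and 0.869% lower. Adjusted p is edgeR's quasi-likelihood p with Benjamini-Hochberg adjustment over all genes tested, and a gene is said below to rise or fall where it is under 0.05, whatever the size of the change. By that measure 562 genes rose (3.25%) and 686 fell (3.97%), 1248 in all (7.23%). These shares are the background for the count of every gene group below. Groups did not overlap, with every library of one stage above every library of the other, for 31.0% of genes tested. The median log2 fold change over all genes tested was -0.00065. The counts moved most with 2 of the gd19.5 libraries: without gd19.5 replicate 2 the DEGs were 107 higher and 96 lower, and without gd19.5 replicate 3 they were 102 higher and 84 lower. Without gd16.5 replicate 1, the library with yolk sac transcripts, they were 201 higher and 149 lower. Of the 1248 genes called, 225 kept theirs under all 15 alternative settings, and none changed sign. In a fit over all 24 libraries 654 of them kept their call, and with the replicate number as a block 454. With a Y-linked covariate 801 kept their call, and the DEGs were 168 higher and 133 lower. Without gd16.5 replicate 1, 734 of the calls were kept. For each group of genes, the count is the number of its members called, given where leaving out 1 library moved it by more than 1.5 times. These are whole-tissue libraries, so fewer cells of a type and less RNA per cell cannot be told apart.

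**Figure D1:**
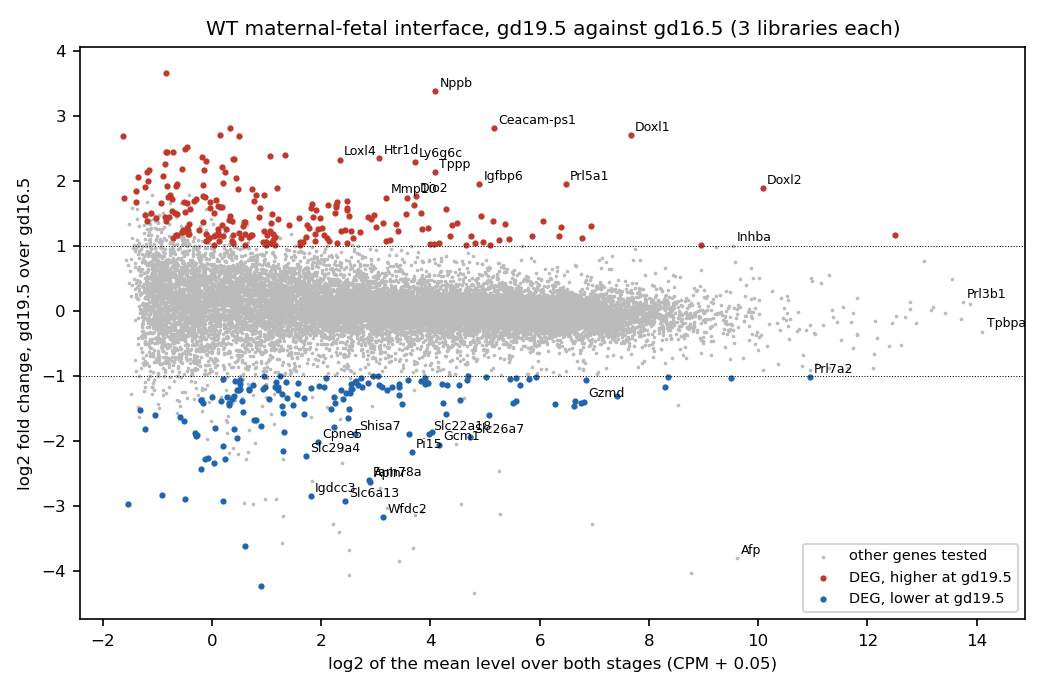
Log2 fold change from gd16.5 to gd19.5 (y axis) against the mean level over both stages on a log2 scale (x axis) for each of the 17269 genes tested in 3 WT libraries per stage. Red points are the 218 DEGs higher at gd19.5, blue points the 150 lower, and dotted lines mark a log2 fold change of 1 in either direction. The hormone gene *Prl3b1* sits near 0, and *Doxl1* and *Doxl2* lie far above it.

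The 12 largest rises, among DEGs at 5 CPM or more whose groups did not overlap, were led by *Nppb*, which encodes B-type natriuretic peptide, a hormone that relaxes vessels and promotes salt excretion. *Nppb* (chromosome 4, 147985788 to 147987205, plus strand, GRCm38) had 2.84, 3.68 and 2.39 CPM at gd16.5 and 16.4, 33.3 and 43.3 CPM at gd19.5. The rule required all gd19.5 libraries to lie above all gd16.5 libraries. The gd19.5 libraries differed among themselves, and replicate 1 was the lowest (log2 fold change 3.38, SE 0.349, adjusted p = 0.00204). Both *Doxl1* and *Doxl2*, neighbouring chromosome 6 genes named for their likeness to diamine oxidase, which degrades histamine and polyamines, rose together. *Doxl1* was at 52.9, 71.3 and 38.3 CPM at gd16.5 and 344, 303 and 409 CPM at gd19.5 (log2 fold change 2.7, SE 0.213, adjusted p = 0.000598). *Doxl2* was at 505, 548 and 331 CPM at gd16.5 and 1611, 1649 and 1856 CPM at gd19.5 (log2 fold change 1.89, SE 0.183, adjusted p = 0.00155). The 3 gd19.5 values of each were close to each other and well above the gd16.5 values.

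*Igfbp6*, a binding protein with preference for insulin-like growth factor II, gave the smallest adjusted p of the rises named here. Its levels were 11.3, 11.9 and 13.4 CPM at gd16.5 and 47.2, 47.8 and 46.3 CPM at gd19.5, with almost no spread within a stage (log2 fold change 1.95, SE 0.0892, adjusted p = 8.75e-05). *Dio2*, the deiodinase that turns thyroxine into active thyroid hormone, had 4.34, 5.94 and 7.78 CPM at gd16.5 and 20.6, 16.1 and 24.6 CPM at gd19.5 (log2 fold change 1.77, SE 0.219, adjusted p = 0.00413). The matrix enzymes *Loxl4*, a lysyl oxidase that cross-links collagen, and *Mmp10*, a stromelysin that cleaves matrix proteins, rose together. *Loxl4* went from 1.66 ± 0.630 to 8.36 ± 0.425 CPM (mean ± SD, n = 3; log2 fold change 2.32, SE 0.224, adjusted p = 0.00151). *Mmp10* went from 4.19 ± 0.163 to 14.01 ± 5.08 CPM (log2 fold change 1.74, SE 0.239, adjusted p = 0.00592), and its gd19.5 value was lowest in replicate 1 and highest in replicate 3. The remaining members are led by a pseudogene of the Ceacam family by its name. *Ceacam-ps1* rose from 8.92 to 62.8 CPM (log2 fold change 2.81, adjusted p = 0.00383). *Htr1d*, a serotonin receptor, rose from 2.71 to 13.9 CPM (log2 fold change 2.35, adjusted p = 0.00106). *Ly6g6c* rose from 4.43 to 21.8 CPM (log2 fold change 2.29, adjusted p = 0.000293). *Tppp*, which promotes tubulin polymerization, rose from 6.25 to 27.5 CPM (log2 fold change 2.14, adjusted p = 0.000735). *Prl5a1* is described with its family. All 12 kept their call under each of the 15 alternatives.

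The 12 largest falls, chosen by the same rule, were led by *Wfdc2*. This gene, a secreted protease inhibitor of epithelia, was at 11.96, 16.45 and 18.97 CPM at gd16.5 and 2.32, 1.53 and 1.34 CPM at gd19.5 (chromosome 2, 164562413 to 164568510, plus strand; log2 fold change -3.18, SE 0.237, adjusted p = 0.000598). The rule that chose the 12 genes required that the 2 stages did not overlap. *Aplnr*, the receptor for apelin and Elabela on endothelial cells and their precursors, had 12.8, 11.01 and 14.2 CPM at gd16.5 and 2.13, 2.03 and 1.95 CPM at gd19.5 (chromosome 2, 85136225 to 85139923, plus strand; log2 fold change -2.63, SE 0.139, adjusted p = 0.000152). Its libraries were tight within both stages. *Gcm1*, the transcription factor that drives syncytiotrophoblast differentiation, had 25.1, 31.5 and 29.2 CPM at gd16.5 and 9.59, 7.44 and 3.45 CPM at gd19.5 (chromosome 9, 78051924 to 78065624, plus strand; log2 fold change -2.06, SE 0.287, adjusted p = 0.00622).

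*Slc6a13*, a transporter of GABA and taurine, went from 9.45 ± 2.90 to 1.24 ± 0.271 CPM (log2 fold change -2.93, SE 0.258, adjusted p = 0.000888). *Slc26a7*, an anion exchanger, had 32.5, 44.3 and 48.8 CPM at gd16.5 and 11.4, 10.53 and 10.7 CPM at gd19.5 (log2 fold change -1.94, SE 0.147, adjusted p = 0.000598). *Slc22a18*, an imprinted gene for an organic cation transporter-like protein, had 22.6, 25.9 and 25.6 CPM at gd16.5 and 7.76, 7.69 and 4.34 CPM at gd19.5 (log2 fold change -1.90, SE 0.196, adjusted p = 0.00204). That all 3 of these transporter genes were lower in every gd19.5 library followed from the rule that chose them. *Slc29a4*, a monoamine transporter, fell from 5.35 to 1.13 CPM (log2 fold change -2.24, adjusted p = 0.000598). *Igdcc3* fell from 6.07 to 0.834 CPM (log2 fold change -2.85, adjusted p = 0.000293). *Cpne5*, a calcium-dependent membrane-binding copine, fell from 6.09 to 1.48 CPM (log2 fold change -2.02, adjusted p = 0.0101). *Shisa7* fell from 9.59 to 2.54 CPM (log2 fold change -1.90, adjusted p = 0.0123). *Fam78a* fell from 12.4 to 2.03 CPM (log2 fold change -2.61, adjusted p = 0.000598). *Pi15*, a peptidase inhibitor, fell from 20.6 to 4.51 CPM (log2 fold change -2.18, adjusted p = 0.0321). Exons of *Fam78a* overlap *Nup214* on the other strand, and since the counting took no account of strand, their reads cannot be told apart there. *Pi15* had 10.3, 12.1 and 39.4 CPM at gd16.5, and was high in replicate 3. *Pi15* lost its call without gd19.5 replicates 1, 2 and 3 (adjusted p up to 0.127). The other 11 kept their call under each alternative.

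**Figure D2:**
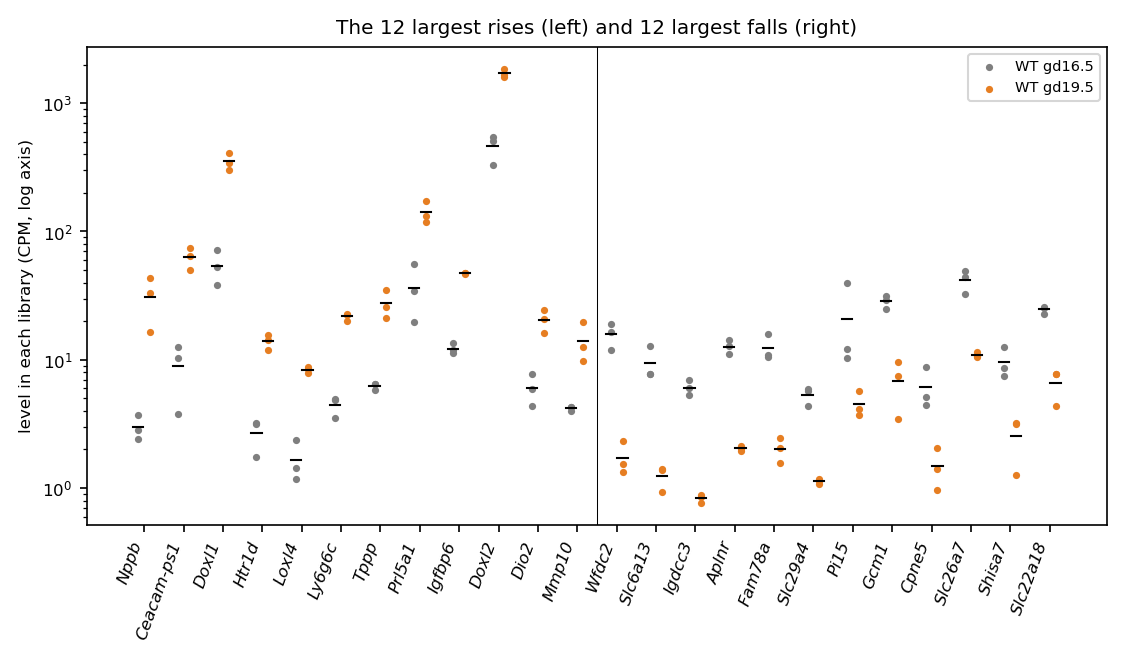
Level in each library (CPM, log axis) of the genes with the 12 largest rises (left of the line) and the 12 largest falls (right) from gd16.5 (grey, 3 WT libraries) to gd19.5 (orange, 3 WT libraries); black bars are stage means. Genes were chosen so that the 2 sets of points are separate. *Doxl2* reached 1856 CPM and *Igdcc3* fell below 1 CPM.

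Genes of NK cell granules fell together. Of 27 listed NK cell genes 14 were tested, and 10 fell (background of 3.97%) and 1 rose. They had a median log2 fold change of -1.25 against -0.00065 for all genes, and 8 of the falls were DEGs (background of 0.869%). Perforin (*Prf1*), which opens pores in target cells, was at 19.3, 27.7 and 34.9 CPM at gd16.5 and 12.2, 8.93 and 9.29 CPM at gd19.5 (chromosome 10, 61297833 to 61304680, plus strand; log2 fold change -1.43, SE 0.211, adjusted p = 0.00738). *Gzmd*, a granzyme, was at 123, 177 and 185 CPM at gd16.5 and 73.2, 51.8 and 58.9 CPM at gd19.5 (chromosome 14, 56129556 to 56132608, minus strand; log2 fold change -1.40, SE 0.171, adjusted p = 0.00395). Every gd19.5 library was below every gd16.5 library for both genes, and gd16.5 replicate 1 was the lowest of its stage.

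The other granzymes, serine proteases that perforin admits into target cells, fell by similar amounts. *Gzmc* fell from 68.5 to 26.2 CPM (log2 fold change -1.39, adjusted p = 0.00224). *Gzme* fell from 66.1 to 24.6 CPM (log2 fold change -1.43, adjusted p = 0.00315). *Gzmf* fell from 145 to 54.96 CPM (log2 fold change -1.40, adjusted p = 0.00510). All 3 fell by nearly the same factor as *Gzmd*. *Gzmg* fell from 158 to 59.1 CPM (log2 fold change -1.42, adjusted p = 0.00422). *Gzmb*, the granzyme also used by cytotoxic T cells, fell from 14.8 to 6.54 CPM (log2 fold change -1.17, adjusted p = 0.00320). Transcripts of *Gzmd* and *Gzme* are 93.8% identical, so how reads divide between them is uncertain. *Fcrl6*, an Fc receptor-like gene, fell from 6.68 to 2.66 CPM (log2 fold change -1.32, adjusted p = 0.0117). Surface receptors moved less: *Itga1*, an integrin of tissue-resident NK cells, and *Il2rb*, the shared interleukin-2 and interleukin-15 receptor chain, fell by 0.38 and 0.36 on the log2 scale (adjusted p = 0.0332 and 0.0418). *Il18rap*, a subunit of the interleukin-18 receptor, went the other way, from 1.74 ± 0.679 to 5.22 ± 0.782 CPM (log2 fold change 1.58, SE 0.253, adjusted p = 0.00984).

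The 3 remaining members tested did not pass: *Eomes* (-0.48), *Tyrobp* (0.40) and *Cd160* (-0.33). Several defining NK receptors were close to absent at both stages, with at most 3 reads of *Ncr1*, 5 of *Klrb1c*, 12 of *Klrk1* and 16 of *Klrd1* in any of the 6 libraries. The summed level of the list was 678, 900.3 and 948 CPM in the gd16.5 libraries and 448, 361 and 397 CPM in the gd19.5 libraries. Of the 11 calls, 7 held under all 15 alternatives. *Fcrl6* lost its call without gd19.5 replicate 2 (adjusted p = 0.0535). *Itga1* lost its call without gd16.5 replicates 2 and 3 or gd19.5 replicates 1, 2 and 3 (adjusted p up to 0.128). *Il2rb* lost its call without gd16.5 replicates 1 and 3 or gd19.5 replicates 1, 2 and 3 (adjusted p up to 0.170).

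Promoters of *Prf1*, *Gzmb*, *Gzmd* and *Fcrl6*, only a part of the fallen NK genes, are shown because these genes moved together and share a short motif. RefSeq (GRCm38.p6) gave a promoter for 9 of the 10 fallen NK genes, taken here as the 250 bases before the transcription start. The motif TGTGGT, to which Runx factors bind, was found on either strand in 8 of 9 (88.9%), against 10.8% of the 12106 promoters of genes tested and 14.2% of 27025 promoters in all. AGGTGT, bound by T-box factors, was found in 2 of 9 (22.2%), against 9.85% of promoters of genes tested. The promoters of *Gzmb* to *Gzmg* belong to related genes that neighbour each other on chromosome 14 and are not independent. *Gzmb* and *Gzmc* transcripts are 81.1% identical where they align. Outside that cluster only *Prf1* and *Fcrl6* held TGTGGT. The promoter of *Itga1* held neither TGTGGT nor AGGTGT and is not shown. Among all DEGs with a promoter, TGTGGT was found in 20 of 106 lower genes (18.9%) and 16 of 146 higher genes (11.0%). Of 6 motifs searched TGTGGT and AGGTGT are marked, in capitals, on either strand. They can overlap each other, and a match shows letters, not binding. Promoters of the fallen red cell genes were also searched and are not shown. The GATA motifs AGATAA or TGATAA were in 2 of 5 of them (40%), against 9.89% of promoters of genes tested.
Prf1 (chr10:61297586-61297835, plus strand): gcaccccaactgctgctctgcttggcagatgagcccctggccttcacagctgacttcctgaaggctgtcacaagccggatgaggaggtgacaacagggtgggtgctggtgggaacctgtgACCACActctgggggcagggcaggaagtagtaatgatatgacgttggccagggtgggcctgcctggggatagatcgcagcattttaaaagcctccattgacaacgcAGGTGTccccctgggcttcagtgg
Gzmb (chr14:56262335-56262584, minus strand): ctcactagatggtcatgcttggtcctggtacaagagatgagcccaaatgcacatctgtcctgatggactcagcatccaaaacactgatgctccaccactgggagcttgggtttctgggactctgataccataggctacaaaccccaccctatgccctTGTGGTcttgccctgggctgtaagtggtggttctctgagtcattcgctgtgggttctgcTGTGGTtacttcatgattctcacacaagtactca
Gzmd (chr14:56132594-56132843, minus strand): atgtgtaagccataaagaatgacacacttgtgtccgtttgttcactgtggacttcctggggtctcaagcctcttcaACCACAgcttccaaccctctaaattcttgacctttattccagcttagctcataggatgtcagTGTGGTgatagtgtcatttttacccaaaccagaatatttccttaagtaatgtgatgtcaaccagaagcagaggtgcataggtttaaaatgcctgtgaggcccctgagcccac
Fcrl6 (chr1:172602552-172602801, minus strand): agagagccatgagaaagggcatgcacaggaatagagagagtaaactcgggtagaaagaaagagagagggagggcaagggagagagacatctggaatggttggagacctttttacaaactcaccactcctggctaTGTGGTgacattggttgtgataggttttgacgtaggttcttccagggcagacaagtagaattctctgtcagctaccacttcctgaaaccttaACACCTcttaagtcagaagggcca

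Other leukocyte genes did not follow the NK genes. None of the 22 macrophage genes tested passed (1 when any single gd16.5 library was left out), with a median log2 fold change of 0.31; *Csf1r*, the receptor for the main macrophage growth factor, was at 704, 652 and 945 CPM at gd16.5 and 655, 631 and 589.7 CPM at gd19.5 (log2 fold change -0.29, SE 0.142, adjusted p = 0.244). Of 13 neutrophil and alarmin genes, 4 rose, all DEGs, and none fell. *Csf3r*, the G-CSF receptor of neutrophils, was at 3.12, 1.93 and 1.98 CPM at gd16.5 and 8.94, 5.196 and 7.30 CPM at gd19.5 (log2 fold change 1.60, SE 0.251, adjusted p = 0.00902). It was lowest in gd19.5 replicate 2, still above all gd16.5 libraries. At low levels, *S100a9*, a calprotectin subunit, rose from 2.02 to 4.20 CPM (log2 fold change 1.05, adjusted p = 0.0162). *Mmp9*, a gelatinase, rose from 1.12 to 2.62 CPM (log2 fold change 1.22, adjusted p = 0.0181). *Retnlg* rose from 0.234 to 0.813 CPM (log2 fold change 1.74, adjusted p = 0.0312). Neutrophil granule markers were nearly absent, with at most 3 reads of *Ly6g*, 2 of *Mpo* and 1 of *Elane* in a library. The number of neutrophil genes called was 1 without gd19.5 replicate 3 and 2 without gd19.5 replicates 1 and 2. *S100a9* lost its call without gd19.5 replicates 1 and 3 (adjusted p up to 0.0603). *Mmp9* lost its call without gd19.5 replicates 2 and 3 (adjusted p up to 0.0733). *Retnlg* lost its call without gd16.5 replicates 2 and 3 or gd19.5 replicates 1, 2 and 3 (adjusted p up to 0.0986).

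Of 24 interferon-stimulated genes 3 rose and 2 fell (median 0.38), against 3.25% rising and 3.97% falling over all genes tested. The interferon-gamma-induced GTPases *Gbp7* (28.6 to 47.5 CPM, log2 fold change 0.73, SE 0.105, adjusted p = 0.00653) and *Ifi47* (8.42 to 20.2 CPM, log2 fold change 1.26, SE 0.235, adjusted p = 0.0172) rose with *Oasl2* (0.46, adjusted p = 0.0410), while the antiviral genes *Rsad2* (-0.47, adjusted p = 0.0162) and *Bst2* (-0.38, adjusted p = 0.0273) fell. The count of called members was 2 without gd19.5 replicate 2 and 3 without gd16.5 replicates 1 and 2 or gd19.5 replicates 1 and 3. *Ifi47* lost its call without gd19.5 replicate 3 (adjusted p = 0.0519). *Oasl2* lost its call without gd16.5 replicates 1, 2 and 3 or gd19.5 replicates 2 and 3 (adjusted p up to 0.109). *Rsad2* lost its call without gd19.5 replicates 1 and 2 (adjusted p up to 0.0880). Further calls rested on single libraries. *Bst2* lost its call without gd16.5 replicates 1 and 2 or gd19.5 replicates 1 and 2 (adjusted p up to 0.114). Among 20 chemokines and cytokines, *Il1b* and *Tnf* rose and *Cxcl12*, a chemokine that attracts CXCR4-bearing cells, fell from 96.7 ± 3.65 to 67.0 ± 1.53 CPM (log2 fold change -0.53, SE 0.0641, adjusted p = 0.00383). The chemokine and cytokine count was 1 without gd19.5 replicate 3 and 5 without gd16.5 replicate 3, and *Cxcl12* lost its call in the fit over all 24 libraries (adjusted p = 0.384).

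**Figure D3:**
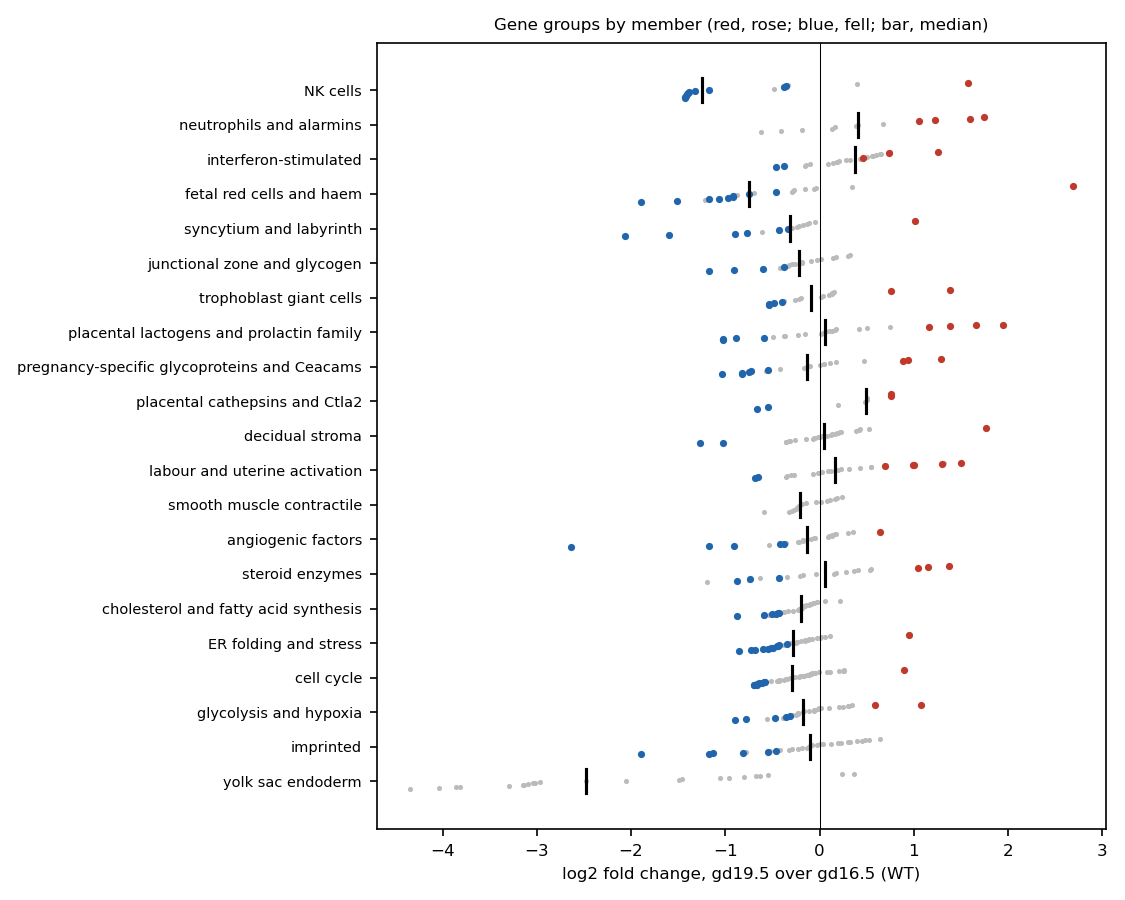
Log2 fold change from gd16.5 to gd19.5 (x axis) of each tested member of 21 gene groups (rows), in 3 WT libraries per stage. Red points rose and blue points fell at an adjusted p under 0.05, grey points did not pass, and the black bar is the median of the group, which is -1.25 for NK cells and 0.41 for neutrophils. The yolk sac row has a median of -2.47 with no member called, and its median was 0.30 without gd16.5 replicate 1.

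In WT the hormones of trophoblast changed member by member rather than together. In the prolactin family, whose members trophoblast and decidua secrete, 24 genes were tested, 4 rose, 4 fell and 16 did not pass, with a median log2 fold change of 0.05. *Prl5a1* rose from 34.3, 55.6 and 19.7 CPM to 118, 131 and 174 CPM (chromosome 13, 28142484 to 28151611, plus strand; log2 fold change 1.95, SE 0.315, adjusted p = 0.0101), and its 3 gd19.5 values lay well above the highest gd16.5 value. *Prl8a6* was at 3534, 4517 and 2715 CPM at gd16.5 and 6225, 7560.0 and 10244 CPM at gd19.5 (log2 fold change 1.16, SE 0.233, adjusted p = 0.0220). The placental lactogen I genes *Prl3d1* and *Prl3d2*, hormones of parietal giant cells that act on the maternal prolactin receptor, rose as well. *Prl3d1* went from 19.48 ± 6.02 to 50.9 ± 9.27 CPM (log2 fold change 1.38, SE 0.215, adjusted p = 0.00888). *Prl3d2* went from 0.320 ± 0.0832 to 1.03 ± 0.263 CPM (log2 fold change 1.66, SE 0.326, adjusted p = 0.0206). *Prl3d1* shares 98.5% of its transcript letters with *Prl3d3*, so the split between these copies is uncertain.

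Placental lactogen II, *Prl3b1*, the dominant lactogen of the second part of pregnancy, did not pass (log2 fold change 0.13, SE 0.188, adjusted p = 0.724), and its sign turned without gd16.5 replicate 3 or gd19.5 replicate 3. *Prl7a2* fell from 2555, 3017 and 2386 CPM to 1322, 1197 and 1402 CPM (log2 fold change -1.02, SE 0.128, adjusted p = 0.00413), with no overlap between stages. *Prl3c1*, made by decidua, fell from 46.1, 48.1 and 36.05 CPM to 20.8, 21.9 and 21.3 CPM (log2 fold change -1.03, SE 0.113, adjusted p = 0.00241). *Prl2b1* fell from 5702 to 3095 CPM (log2 fold change -0.88, adjusted p = 0.0161). *Prl8a1* fell from 152 to 101 CPM (log2 fold change -0.59, adjusted p = 0.0304). The count of called members was 4 without gd19.5 replicate 2. *Prl3d2* lost its call without gd16.5 replicate 2 or gd19.5 replicates 2 and 3 (adjusted p up to 0.0786). *Prl8a6* lost its call without gd16.5 replicate 1 or gd19.5 replicates 2 and 3 (adjusted p up to 0.0803). *Prl2b1* lost its call without gd19.5 replicates 1 and 2 (adjusted p up to 0.0902). Other members depended on single libraries too. *Prl8a1* lost its call without gd16.5 replicate 2 or gd19.5 replicates 1 and 2 (adjusted p up to 0.111). In the fit over all 24 libraries *Prl7a2* (adjusted p = 0.567), *Prl3d1* (0.199) and *Prl3c1* (0.135) lost theirs.

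Pregnancy-specific glycoproteins are immunoglobulin-like proteins of trophoblast that enter maternal blood, and they are listed here with the related Ceacam genes. Of 21 genes of both kinds tested, 6 fell and 3 rose (median -0.13), and 12 had a negative log2 fold change. Their summed level overlapped between stages, at 93568, 91480 and 76956 CPM at gd16.5 and 71958, 78612 and 86553 CPM at gd19.5. *Psg25* was at 1860.0, 1589.5 and 1615 CPM at gd16.5 and 925, 1008 and 925 CPM at gd19.5 (log2 fold change -0.83, SE 0.108, adjusted p = 0.00499). *Psg19* was at 1120.3, 1042 and 983 CPM and 629.6, 633 and 635 CPM (log2 fold change -0.73, SE 0.0936, adjusted p = 0.00444). For both, the stages were clearly apart and the gd19.5 libraries nearly equal. *Psg18* fell from 2723 to 1536 CPM (log2 fold change -0.83, adjusted p = 0.00597). *Psg17* fell from 899 to 535 CPM (log2 fold change -0.75, adjusted p = 0.0116). *Psg27* fell from 6397 to 4378 CPM (log2 fold change -0.55, adjusted p = 0.0331). *Ceacam3*, of the related carcinoembryonic antigen genes, fell from 968, 849 and 1118 CPM to 514, 472 and 443 CPM (log2 fold change -1.04, SE 0.122, adjusted p = 0.00338). *Ceacam15* rose from 50.8, 50.1 and 46.1 CPM to 104, 125 and 129.6 CPM (log2 fold change 1.28, SE 0.0957, adjusted p = 0.000598). *Psg22* rose from 147 to 282 CPM (log2 fold change 0.94, adjusted p = 0.0111). *Psg20* rose from 1.46 to 2.72 CPM (log2 fold change 0.89, adjusted p = 0.0318). *Psg19* and *Psg22* share 93.0% of their transcript letters yet moved in opposite directions. *Psg20* lost its call without gd16.5 replicates 1, 2 and 3 or gd19.5 replicates 2 and 3 (adjusted p up to 0.116). *Psg17* lost its call without gd19.5 replicates 2 and 3 (adjusted p up to 0.0690). *Psg27* lost its call without gd16.5 replicate 1 or gd19.5 replicates 1, 2 and 3 (adjusted p up to 0.156). The calls of *Psg25* (adjusted p = 0.6003), *Psg19* (0.547), *Ceacam3* (0.222) and *Psg18* were lost in the fit over all 24 libraries.

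Placental cathepsins, proteases of trophoblast, lie in a cluster on chromosome 13 with the *Ctla2* genes, which resemble the inhibitory propeptide of cathepsins. They split: of 8 genes of both kinds tested, *Ctsq* and *Ctla2b* rose and *Cts3* and *Ctsm* fell. *Ctsq*, of sinusoidal giant cells, was at 6631, 7237 and 4779 CPM at gd16.5 and 9413, 10659 and 11543 CPM at gd19.5 (log2 fold change 0.76, SE 0.180, adjusted p = 0.0387). *Cts3* was at 5744, 6060.3 and 4688 CPM and 3180.4, 3480.2 and 3764 CPM (log2 fold change -0.66, SE 0.141, adjusted p = 0.0269). The 2 stages did not overlap for either. *Ctsm* fell from 1362 to 932 CPM (log2 fold change -0.55, adjusted p = 0.0350). *Ctla2b*, which has a near-identical copy, rose from 4.66 to 7.92 CPM (log2 fold change 0.76, adjusted p = 0.0252). None of the 4 calls held under all alternatives, and the count was 0 without gd19.5 replicates 2 and 3 and 1 without gd16.5 replicates 1 and 2 or gd19.5 replicate 1. *Ctsq* lost its call without gd16.5 replicate 1 or gd19.5 replicates 1, 2 and 3 (adjusted p up to 0.141). *Ctla2b* lost its call without gd16.5 replicate 2 or gd19.5 replicates 2 and 3 (adjusted p up to 0.1002). *Cts3* and *Ctsm* lost their calls without gd16.5 replicates 1 and 2 or gd19.5 replicates 1, 2 and 3 (adjusted p up to 0.149).

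Junctional zone genes gave 4 falls and no rise among 18 tested (median -0.22). *Tpbpa*, the marker of spongiotrophoblast, was at 20539, 22564 and 15858 CPM at gd16.5 and 13608, 14841 and 18629 CPM at gd19.5 and did not pass (log2 fold change -0.32, SE 0.191, adjusted p = 0.336). The stages overlapped for it. *Flt1*, whose soluble product binds VEGF and which spongiotrophoblast expresses, fell from 2605, 2079 and 3095 CPM to 1422, 1485 and 1233 CPM (log2 fold change -0.91, SE 0.158, adjusted p = 0.0129). *Pcdh12*, a protocadherin of glycogen trophoblast, fell from 129.9 to 85.3 CPM (log2 fold change -0.61, adjusted p = 0.0150). *Pgm1*, which links glycogen and glucose metabolism, fell from 58.9 to 45.2 CPM (log2 fold change -0.38, adjusted p = 0.0210). *Ascl2*, a transcription factor of spongiotrophoblast precursors, fell from 3.004 to 1.32 CPM (log2 fold change -1.18, adjusted p = 0.0235). The count was 0 without gd19.5 replicates 2 and 3. Among 16 giant cell genes, *Hand1*, *Podxl*, *Plac8* and *C1qtnf6* fell and *Prl3d1* and *Ctsq* rose. *Plac8* fell from 249.7 to 172 CPM (log2 fold change -0.54, adjusted p = 0.0158). The count of that list was 1 without gd19.5 replicate 2, 2 without gd19.5 replicates 1 and 3 and 3 without gd16.5 replicate 1. *Flt1*, *Pcdh12* and *Podxl* lost their calls without gd19.5 replicates 2 and 3 (adjusted p up to 0.131). *Pgm1* lost its call without gd16.5 replicate 1 or gd19.5 replicates 1, 2 and 3 (adjusted p up to 0.0885). *Ascl2* lost its call without gd16.5 replicate 2 or gd19.5 replicates 2 and 3 (adjusted p up to 0.0808). The same held for more members. *Plac8* lost its call without gd19.5 replicates 1 and 2 (adjusted p up to 0.0790). *Hand1* lost its call without gd16.5 replicates 1 and 3 or gd19.5 replicates 1, 2 and 3 (adjusted p up to 0.147).

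Genes of the labyrinth and its syncytium were mostly lower. Of 16 tested, 15 had a negative log2 fold change, 6 fell and 1 rose (median -0.31). Their summed level overlapped between stages, at 6174, 7381 and 7719 CPM at gd16.5 and 6376, 6075 and 4813 CPM at gd19.5. In KO over the same stages 0 of them passed, with a median of -0.081. *Syna*, the envelope-derived fusogen that fuses syncytiotrophoblast layer I, was at 38.9, 42.4 and 69.3 CPM at gd16.5 and 21.04, 13.1 and 15.5 CPM at gd19.5 (chromosome 5, 134558146 to 134560171, minus strand; log2 fold change -1.60, SE 0.241, adjusted p = 0.00800). Its fall ran beside that of *Gcm1* given above. *Epcam*, an adhesion protein of labyrinth progenitors, fell by a small but tight margin, from 58.1 ± 0.725 to 43.3 ± 0.692 CPM (log2 fold change -0.43, SE 0.0616, adjusted p = 0.00681). *Slc16a3*, a lactate transporter, fell from 145 to 78.0 CPM (log2 fold change -0.89, adjusted p = 0.0123). *Cdh3*, P-cadherin, fell from 302 to 177 CPM (log2 fold change -0.77, adjusted p = 0.0325). *Tfap2c*, a trophoblast transcription factor, fell from 188 to 149 CPM (log2 fold change -0.33, adjusted p = 0.0452). Exons of *Slc16a3* overlap *Csnk1d* on the other strand. *Met*, the receptor for hepatocyte growth factor, rose from 10.6, 10.01 and 10.7 CPM to 20.05, 17.5 and 25.9 CPM (log2 fold change 1.02, SE 0.144, adjusted p = 0.00649). The count was 4 without gd19.5 replicate 2. *Epcam* lost its call without gd19.5 replicate 2 (adjusted p = 0.0525). *Cdh3* lost its call without gd19.5 replicates 1, 2 and 3 (adjusted p up to 0.127). *Tfap2c* lost its call without gd16.5 replicates 1 and 3 or gd19.5 replicates 1, 2 and 3 (adjusted p up to 0.151).

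The Elabela pair fell on both sides: besides *Aplnr*, its ligand gene *Apela*, which syncytiotrophoblast secretes, went from 8.68, 11.01 and 8.06 CPM to 4.34, 4.02 and 3.97 CPM (log2 fold change -1.17, SE 0.145, adjusted p = 0.00413). In all, 5 of 24 angiogenic factors and receptors fell and 1 rose. *Nrp1*, a co-receptor of VEGF and semaphorins, fell from 24.6 to 18.4 CPM (log2 fold change -0.42, adjusted p = 0.0370). *Tek*, the angiopoietin receptor, fell from 45.9 to 35.2 CPM (log2 fold change -0.38, adjusted p = 0.0384). *Fgf2*, a growth factor for endothelium and mesenchyme, rose from 33.1 ± 3.60 to 51.7 ± 2.15 CPM (log2 fold change 0.64, SE 0.0913, adjusted p = 0.00653). Of 22 endothelial genes tested, 1 passed, *Tek* (2 without gd16.5 replicate 1 and 0 without gd19.5 replicates 1, 2 and 3). The count of called angiogenic genes was 3 without gd19.5 replicates 2 and 3. *Flt1* lost its call without gd19.5 replicates 2 and 3 (adjusted p up to 0.0645). *Nrp1* and *Tek* lost their calls without gd16.5 replicates 2 and 3 or gd19.5 replicates 1, 2 and 3 (adjusted p up to 0.154).

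Few nutrient transfer genes were called, and they are described one by one, with 3.25% of all genes tested rising and 3.97% falling. Of 30 glucose and amino acid transporters 1 rose and 3 fell. *Slc1a4*, a carrier of small neutral amino acids, rose from 51.4, 56.2 and 53.8 CPM to 82.4, 83.1 and 85.0 CPM (log2 fold change 0.63, SE 0.0648, adjusted p = 0.00199), with all libraries tight. The falls were in carriers of cationic and large neutral amino acids. *Slc7a7*, whose exons overlap *Oxa1l* on the other strand, fell from 27.8 to 16.8 CPM (log2 fold change -0.73, adjusted p = 0.00240). *Slc7a2* fell from 109 to 55.1 CPM (log2 fold change -0.99, adjusted p = 0.0225). *Slc7a5* fell from 401 to 228 CPM (log2 fold change -0.81, adjusted p = 0.0477). *Mfsd2a*, which imports the omega-3 fatty acid DHA as its lysolipid, fell from 71.4, 64.2 and 80.3 CPM to 39.6, 37.5 and 32.3 CPM (log2 fold change -0.98, SE 0.105, adjusted p = 0.00228). Of 26 genes of fatty acid uptake and lipid droplets it made the 1 fall, and both rises were lipases. *Lipe* rose from 5.49 to 9.44 CPM (log2 fold change 0.78, adjusted p = 0.00565). *Lpl* rose from 44.3 to 55.9 CPM (log2 fold change 0.33, adjusted p = 0.0454). Of 23 genes of iron and calcium transfer 1 rose and 2 fell. *Cp*, a ferroxidase whose exons overlap *Hps3* on the other strand, rose from 28.2 to 46.8 CPM (log2 fold change 0.73, adjusted p = 0.0184). *Hmox1*, the haem oxygenase, fell from 115 to 81.4 CPM (log2 fold change -0.50, adjusted p = 0.0122). *Slc11a2*, an iron importer, fell from 57.2 to 42.5 CPM (log2 fold change -0.43, adjusted p = 0.0222). Calls counted were 2 without gd19.5 replicate 2 for transporters and 0 without gd19.5 replicate 2 and 1 without gd19.5 replicate 3 for iron and calcium. *Slc7a2* lost its call without gd19.5 replicate 2 (adjusted p = 0.0790). *Slc7a5* lost its call without gd16.5 replicates 2 and 3 or gd19.5 replicates 1, 2 and 3 (adjusted p up to 0.120). *Lpl* lost its call without gd16.5 replicates 1 and 2 or gd19.5 replicates 1, 2 and 3 (adjusted p up to 0.152). More of these calls turned on 1 library. *Hmox1* lost its call without gd19.5 replicates 2 and 3 (adjusted p up to 0.0697). *Cp* lost its call without gd19.5 replicates 1 and 2 (adjusted p up to 0.0718). *Slc11a2* lost its call without gd16.5 replicate 1 or gd19.5 replicates 2 and 3 (adjusted p up to 0.103).

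Genes of red cells were mostly lower at gd19.5. Of 21 tested, 9 fell and 1 rose, 19 had a negative log2 fold change, and the median was -0.74. *Slc4a1*, the anion exchanger band 3 of the red cell membrane, was at 21.8, 20.4 and 15.1 CPM at gd16.5 and 5.82, 6.30 and 3.24 CPM at gd19.5 (chromosome 11, 102348824 to 102366203, minus strand; log2 fold change -1.89, SE 0.235, adjusted p = 0.00413). The stages were apart for it. *Ermap*, a red cell adhesion protein, fell from 17.3 to 9.15 CPM (log2 fold change -0.92, adjusted p = 0.0138). *Sptb*, a spectrin of the membrane skeleton, fell from 3.69 to 1.95 CPM (log2 fold change -0.92, adjusted p = 0.0381). The falls also took in enzymes of haem synthesis and of oxygen release. *Alas2*, of haem synthesis, fell from 156 to 74.2 CPM (log2 fold change -1.07, adjusted p = 0.0390). *Fech*, which inserts iron into haem, fell from 69.4 to 50.3 CPM (log2 fold change -0.46, adjusted p = 0.0127). *Bpgm*, whose product lowers the oxygen affinity of haemoglobin, fell from 50.6 to 30.2 CPM (log2 fold change -0.74, adjusted p = 0.0358).

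Among globins, *Hbb-bt* fell (436 to 194 CPM, log2 fold change -1.17, SE 0.252, adjusted p = 0.0276). *Hbb-bs* was at 5916, 4196 and 2344 CPM at gd16.5 and 2254, 2418 and 2109 CPM at gd19.5 and did not pass (log2 fold change -0.88, SE 0.280, adjusted p = 0.0965). Transcripts of these adult beta-globin genes are 94.9% identical, so their split is uncertain. The embryonic globin *Hbb-bh1* rose from 0.355 ± 0.312 to 2.36 ± 0.919 CPM (log2 fold change 2.69, SE 0.523, adjusted p = 0.0197). The summed red cell level was 9080.4, 6385 and 3819 CPM at gd16.5 and 3452, 3746 and 3183 CPM at gd19.5, and gd16.5 replicate 1, with the yolk sac transcripts, was the highest. The count was 2 without gd19.5 replicate 2, 3 without gd19.5 replicate 3, 4 without gd19.5 replicate 1 and 6 without gd16.5 replicate 2. *Sptb* and *Bpgm* lost their calls without gd16.5 replicates 1 and 2 or gd19.5 replicates 1, 2 and 3 (adjusted p up to 0.135). *Alas2* and *Hbb-bt* lost their calls without gd16.5 replicate 2 or gd19.5 replicates 1, 2 and 3 (adjusted p up to 0.147). *Fech* lost its call without gd19.5 replicates 1, 2 and 3 (adjusted p up to 0.0610). Still other calls were as fragile. *Hbb-bh1* lost its call without gd19.5 replicates 1 and 2 (adjusted p up to 0.0784). Of the 10 calls, that of *Slc4a1* held under all 15 alternatives.

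Genes of labour moved in part. Of 24 tested, 5 rose and 2 fell (median 0.16). *Ptgs2*, the inducible cyclooxygenase that makes prostaglandins, was at 27.9, 36.7 and 37.8 CPM at gd16.5 and 56.5, 60.7 and 86.4 CPM at gd19.5 (chromosome 1, 150100031 to 150108227, plus strand; log2 fold change 0.99, SE 0.172, adjusted p = 0.0128). *Hpgd*, which inactivates prostaglandins, rose as well, from 76.6 ± 9.16 to 124 ± 18.2 CPM (log2 fold change 0.69, SE 0.122, adjusted p = 0.0135). *Rxfp1*, the relaxin receptor, was at 2.05, 2.22 and 3.13 CPM and 6.70, 6.12 and 8.07 CPM (log2 fold change 1.5, SE 0.190, adjusted p = 0.00422). Both cytokines called rose at low levels. *Il1b* rose from 0.827 to 2.05 CPM (log2 fold change 1.30, adjusted p = 0.0127). *Tnf* rose from 0.981 to 1.96 CPM (log2 fold change 1.00, adjusted p = 0.0253). Opposite to them moved a prostaglandin receptor and a nitric oxide synthase. *Ptger3*, a contractile prostaglandin E2 receptor, fell from 38.8 to 24.1 CPM (log2 fold change -0.69, adjusted p = 0.00257). *Nos1* fell from 20.9 to 13.3 CPM (log2 fold change -0.65, adjusted p = 0.0244).

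Other genes linked to labour or to smooth muscle did not pass or were not tested. The labels and methods name the interface and placentae as the tissue, not myometrium. The oxytocin receptor *Oxtr* had at most 17 reads in a library and was not tested. *Gja1*, the gap junction protein connexin 43, was at 238, 198 and 340.2 CPM at gd16.5 and 231, 198 and 197 CPM at gd19.5 (log2 fold change -0.31, SE 0.178, adjusted p = 0.327). The progesterone receptor *Pgr* was at 34.02, 33.4 and 59.8 CPM and 63.7, 50.8 and 56.1 CPM (log2 fold change 0.43, SE 0.208, adjusted p = 0.252). Smooth muscle actin *Acta2* was at 101, 95.7 and 85.3 CPM and 94.8, 88.2 and 73.1 CPM (log2 fold change -0.14, SE 0.107, adjusted p = 0.465), and none of 19 smooth muscle genes passed. The stages overlapped for all 3 genes. Without gd19.5 replicate 3, 4 of the labour genes were called. *Il1b* lost its call without gd19.5 replicate 3 (adjusted p = 0.0521). *Tnf* lost its call without gd16.5 replicates 1 and 2 or gd19.5 replicates 1, 2 and 3 (adjusted p up to 0.0880). *Nos1* lost its call without gd19.5 replicates 2 and 3 (adjusted p up to 0.0982). Exons of *Il1b* overlap *Il1bos* on the other strand.

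Steroid genes rose and fell in equal number, 3 each of 20 tested, against 3.25% rising and 3.97% falling over all genes tested. *Cyp17a1*, the hydroxylase and lyase on the path from progestins to androgens, was at 49.3, 59.3 and 42.95 CPM at gd16.5 and 107, 104 and 125 CPM at gd19.5 (chromosome 19, 46667165 to 46673172, minus strand; log2 fold change 1.15, SE 0.122, adjusted p = 0.00224). *Sult1e1*, which inactivates oestrogens by sulfation, was at 32.6, 45.3 and 34.1 CPM and 73.5, 99.1 and 117 CPM (log2 fold change 1.37, SE 0.179, adjusted p = 0.00487). Every gd19.5 library was above every gd16.5 library for both. *Hsd3b6*, which makes progesterone, went from 3.58 ± 0.910 to 7.42 ± 2.24 CPM (log2 fold change 1.04, SE 0.252, adjusted p = 0.0413). Those that fell act in cholesterol supply and oestrogen turnover. *Scarb1*, the lipoprotein receptor that brings in cholesterol, fell from 54.1 to 32.4 CPM (log2 fold change -0.74, adjusted p = 0.00547). *Hsd17b7*, of cholesterol and oestrogen synthesis, fell from 45.9 to 24.9 CPM (log2 fold change -0.88, adjusted p = 0.00547). *Hsd17b2*, which oxidizes oestradiol, fell from 236 to 176 CPM (log2 fold change -0.43, adjusted p = 0.0127). *Hsd3b6* lost its call without gd16.5 replicates 1 and 3 or gd19.5 replicates 1 and 3 (adjusted p up to 0.135). *Hsd17b2* lost its call without gd19.5 replicates 2 and 3 (adjusted p up to 0.0779). Among 22 glucocorticoid-responsive genes 1 passed, against 7.23% of all genes tested. That count was 2 without gd16.5 replicate 3 and 0 without gd16.5 replicate 2 or gd19.5 replicates 1, 2 and 3. *Angptl4*, an inhibitor of lipoprotein lipase, fell from 23.9 to 15.8 CPM (log2 fold change -0.60, adjusted p = 0.0247). *Fkbp5*, a glucocorticoid target, was at 31.1, 31.2 and 35.5 CPM and 26.97, 30.2 and 28.3 CPM (log2 fold change -0.19, SE 0.0880, adjusted p = 0.221). *Angptl4* lost its call without gd16.5 replicate 2 or gd19.5 replicates 1, 2 and 3 (adjusted p up to 0.0893).

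Few decidual genes were called, with 3.25% of all genes tested rising and 3.97% falling. Of 28 decidual stroma genes *Dio2* rose, and *Prl3c1* and *Nppc*, which encodes C-type natriuretic peptide, fell. *Nppc* was at 7.34, 7.62 and 9.21 CPM at gd16.5 and 3.96, 4.02 and 1.99 CPM at gd19.5 (log2 fold change -1.27, SE 0.240, adjusted p = 0.0183), opposite in direction to *Nppb*. The decidual count was 5 without gd16.5 replicate 3. Matrix genes are given one by one: of 30 collagens and matrix proteins, 2 fell and 2 rose, against 3.97% and 3.25% of all genes tested. *Col15a1*, a basement membrane collagen, fell from 33.6 to 12.9 CPM (log2 fold change -1.38, adjusted p = 0.0277). *Col14a1* fell from 20.3 to 11.4 CPM (log2 fold change -0.83, adjusted p = 0.00872). *Lum*, which organizes collagen fibrils, rose from 724 to 1135 CPM (log2 fold change 0.65, adjusted p = 0.0487). *Col8a1* rose from 2.44 to 3.78 CPM (log2 fold change 0.63, adjusted p = 0.0342). The count was 1 without gd16.5 replicate 1 or gd19.5 replicates 2 and 3, 2 without gd16.5 replicate 3 and 8 without gd16.5 replicate 2. Of 23 matrix proteases and inhibitors, *Mmp10* and *Mmp9* rose. *Plau*, the urokinase plasminogen activator, fell from 74.0 to 50.998 CPM (log2 fold change -0.54, adjusted p = 0.00950). *Mmp15*, a membrane-bound metalloproteinase, fell from 199.97 to 125 CPM (log2 fold change -0.68, adjusted p = 0.0470). Of 10 uterine epithelial genes *Wfdc2* and the mucin *Muc1* fell. *Muc1* fell from 117 to 61.2 CPM (log2 fold change -0.93, adjusted p = 0.0237). Of 11 mesothelial genes *Lrrn4* rose, from 9.85 ± 2.54 to 28.96 ± 2.24 CPM (log2 fold change 1.56, SE 0.165, adjusted p = 0.00224). The protease count was 2 without gd19.5 replicates 2 and 3 and 10 without gd16.5 replicate 3, and the epithelial count was 1 without gd19.5 replicates 2 and 3. *Col15a1* lost its call without gd16.5 replicate 1 or gd19.5 replicates 2 and 3 (adjusted p up to 0.103). *Lum* lost its call without gd16.5 replicates 1 and 3 or gd19.5 replicates 1, 2 and 3 (adjusted p up to 0.162). *Col8a1* lost its call without gd16.5 replicates 1, 2 and 3 or gd19.5 replicates 1, 2 and 3 (adjusted p up to 0.121). Further calls rested on single libraries. *Mmp15* lost its call without gd16.5 replicate 1 or gd19.5 replicates 1, 2 and 3 (adjusted p up to 0.167). *Mmp9* and *Muc1* lost their calls without gd19.5 replicates 2 and 3 (adjusted p up to 0.09997).

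Genes of protein folding in the endoplasmic reticulum (ER) were mostly lower. Of 30 tested, 11 fell and 1 rose, 25 had a negative log2 fold change, and the median was -0.28. The calcium-binding chaperone *Calr* was at 2381, 1955 and 2609 CPM at gd16.5 and 1395, 1288 and 1153 CPM at gd19.5 (log2 fold change -0.86, SE 0.138, adjusted p = 0.00992). *P4hb*, a protein disulfide isomerase, was at 2289, 1957 and 2465 CPM and 1473, 1393 and 1314 CPM (log2 fold change -0.68, SE 0.121, adjusted p = 0.0138). No library of one stage overlapped the other. *Hyou1*, an ER chaperone of the stress response, fell from 431 to 259.6 CPM (log2 fold change -0.73, adjusted p = 0.0166). *Herpud1*, of ER-associated degradation, fell from 101 to 68.8 CPM (log2 fold change -0.55, adjusted p = 0.0142). *Dnajb11*, *Creld2*, *Sel1l*, *Atf6*, *Pdia3*, *Pdia4* and *Sdf2l1* fell too, with log2 fold changes between -0.60 and -0.35. *Chac1*, a glutathione-degrading target of the ATF4 pathway, rose (0.95, adjusted p = 0.0413). Summed ER transcripts were 19339.5, 16869.9 and 18129 CPM at gd16.5 and 13592, 13166 and 13714 CPM at gd19.5. No single call held under all alternatives, and the count was 0 without gd19.5 replicate 2, 1 without gd19.5 replicate 3, 4 without gd19.5 replicate 1 and 6 without gd16.5 replicate 1. *Calr*, *P4hb*, *Hyou1* and *Creld2* lost their calls without gd19.5 replicates 2 and 3 (adjusted p up to 0.0936). *Herpud1* lost its call without gd19.5 replicates 1 and 2 (adjusted p up to 0.0717). *Dnajb11* lost its call without gd19.5 replicates 1, 2 and 3 (adjusted p up to 0.0850). Other members depended on single libraries too. *Sel1l*, *Atf6* and *Pdia4* lost their calls without gd16.5 replicate 1 or gd19.5 replicates 1, 2 and 3 (adjusted p up to 0.164). *Pdia3* lost its call without gd16.5 replicates 1 and 3 or gd19.5 replicates 1, 2 and 3 (adjusted p up to 0.166). *Sdf2l1* and *Chac1* lost their calls without gd16.5 replicates 1 and 2 or gd19.5 replicates 1, 2 and 3 (adjusted p up to 0.156).

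Proliferation genes were mostly lower. Of 45 cell cycle genes 8 fell and 1 rose, 38 had a negative log2 fold change, and the median was -0.29. Their summed level overlapped between stages, at 661, 649 and 789 CPM at gd16.5 and 673, 648 and 644 CPM at gd19.5. In KO over the same stages 2 of them rose and 0 fell, with a median of 0.0025. *Mki67*, a marker of cycling cells, was at 16.4, 17.2 and 12.4 CPM at gd16.5 and 10.46, 9.61 and 9.002 CPM at gd19.5 (log2 fold change -0.66, SE 0.137, adjusted p = 0.0246). *Top2a*, which untangles DNA in mitosis, was at 16.1, 15.6 and 14.1 CPM and 11.1, 10.46 and 8.35 CPM (log2 fold change -0.61, SE 0.125, adjusted p = 0.0241). *E2f8*, a driver of trophoblast polyploidy, fell from 53.7 to 33.2 CPM (log2 fold change -0.69, adjusted p = 0.0276). The spindle and centromere genes *Kif11*, *Cenpe*, *Cenpf*, *Nusap1* and *Tpx2* fell by 0.58 to 0.70 on the log2 scale. *Ccnd1*, cyclin D1 of the G1 phase, rose from 8.84, 9.50 and 10.3 CPM to 20.8, 17.97 and 14.6 CPM (log2 fold change 0.90, SE 0.140, adjusted p = 0.00891). It shares exon sequence on the other strand with *LTO1*. The count was 1 without gd19.5 replicates 2 and 3, 2 without gd16.5 replicate 2, 3 without gd16.5 replicate 1 and 4 without gd19.5 replicate 1. *Mki67*, *Kif11*, *Cenpe* and *Nusap1* lost their calls without gd16.5 replicates 1 and 2 or gd19.5 replicates 1, 2 and 3 (adjusted p up to 0.147). *Top2a* and *Tpx2* lost their calls without gd16.5 replicates 1 and 2 or gd19.5 replicates 2 and 3 (adjusted p up to 0.126). *E2f8* lost its call without gd19.5 replicates 2 and 3 (adjusted p up to 0.0933). The same held for more members. *Cenpf* lost its call without gd16.5 replicate 2 or gd19.5 replicates 1, 2 and 3 (adjusted p up to 0.110). Among 15 inhibitors and senescence genes 1 passed. *Igfbp3*, a binding protein of insulin-like growth factors, rose from 71.5 to 108 CPM (log2 fold change 0.60, adjusted p = 0.00702). *Cdkn1a*, the cyclin-dependent kinase inhibitor of the p53 pathway, was at 42.6, 39.8 and 50.9 CPM and 40.3, 38.3 and 43.2 CPM (log2 fold change -0.13, SE 0.101, adjusted p = 0.473).

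Metabolic genes gave small falls in lipid synthesis and no call in respiration. Of 31 genes of cholesterol and fatty acid synthesis 6 fell, none rose and 29 had a negative log2 fold change (median -0.19). *Hsd17b7*, given above, was one of them. *Sqle*, the squalene epoxidase, fell from 55.1 to 39.9 CPM (log2 fold change -0.47, adjusted p = 0.0294). *Lss*, the lanosterol synthase, fell from 15.9 to 11.8 CPM (log2 fold change -0.44, adjusted p = 0.0286). *Fads2*, a fatty acid desaturase, fell from 70.7 to 46.9 CPM (log2 fold change -0.59, adjusted p = 0.0295). *Fdft1*, the squalene synthase, fell by 0.43 on the log2 scale. The count was 1 without gd16.5 replicate 1 or gd19.5 replicates 2 and 3 and 2 without gd19.5 replicate 1. Of 36 glycolysis and hypoxia genes 2 rose and 5 fell. Collagen prolyl hydroxylases fell with *Slc16a3*, *Eno1* and *Pdk1*. *P4ha2* fell from 140.0 to 81.4 CPM (log2 fold change -0.78, adjusted p = 0.00624). *P4ha1* fell from 285 to 206 CPM (log2 fold change -0.47, adjusted p = 0.0168). The rises were in an activator of glycolysis and a carbonic anhydrase. *Pfkfb3* rose from 35.9 to 54.01 CPM (log2 fold change 0.59, adjusted p = 0.0183). *Car9* rose from 0.795 to 1.69 CPM (log2 fold change 1.07, adjusted p = 0.0357). That count was 2 without gd19.5 replicates 2 and 3 and 3 without gd19.5 replicate 1. None of 42 nuclear genes of oxidative phosphorylation passed (median -0.08), and none of 12 mitochondrially encoded genes (median -0.01). *Atp5a1*, of ATP synthase, had the smallest p of the first set (-0.25, adjusted p = 0.0888). *P4ha1* lost its call without gd19.5 replicates 1, 2 and 3 (adjusted p up to 0.0820). *Pfkfb3* lost its call without gd16.5 replicate 2 or gd19.5 replicates 1, 2 and 3 (adjusted p up to 0.0841). *Eno1*, *Lss* and *Sqle* lost their calls without gd16.5 replicate 1 or gd19.5 replicates 1, 2 and 3 (adjusted p up to 0.116). More of these calls turned on 1 library. *Pdk1* and *Fdft1* lost their calls without gd16.5 replicates 1 and 2 or gd19.5 replicates 1, 2 and 3 (adjusted p up to 0.153). *Car9* lost its call without gd16.5 replicates 2 and 3 or gd19.5 replicates 1, 2 and 3 (adjusted p up to 0.136). *Fads2* lost its call without gd16.5 replicates 1 and 3 or gd19.5 replicates 2 and 3 (adjusted p up to 0.123).

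Imprinted genes that passed all fell, 6 of 32 tested, against 3.97% of all genes tested. *Slc22a18* and *Ascl2* are given above. *Snrpn*, a splicing protein gene, fell from 16.496, 17.4 and 17.7 CPM to 9.51, 10.53 and 9.29 CPM (log2 fold change -0.81, SE 0.0956, adjusted p = 0.00338). *Magel2* fell from 14.6 to 6.65 CPM (log2 fold change -1.13, adjusted p = 0.00885). *Sgce*, epsilon-sarcoglycan, fell from 141 to 96.9 CPM (log2 fold change -0.54, adjusted p = 0.00873). *Sfmbt2*, a polycomb protein needed in trophoblast, fell from 291 to 211 CPM (log2 fold change -0.46, adjusted p = 0.0406). Of 20 genes of the insulin-like growth factor system, *Igfbp6* and *Igfbp3* rose and 2 fell. *Pappa2*, a protease that frees these growth factors from binding proteins, fell from 3152, 2507 and 4096 CPM to 1883, 1755 and 1628 CPM (log2 fold change -0.89, SE 0.176, adjusted p = 0.0210). *Igf2bp1*, which binds the growth factor mRNA, fell from 75.7 to 54.2 CPM (log2 fold change -0.48, adjusted p = 0.0260). *Inhba*, the activin A subunit, was at 504, 478 and 501 CPM at gd16.5 and 965, 883 and 1118 CPM at gd19.5 (log2 fold change 1.00, SE 0.110, adjusted p = 0.00241). The 2 stages were far apart for it, while *Inhbb* (-0.46, adjusted p = 0.0495) and the activin binder *Fstl3* (-0.51, adjusted p = 0.0239) fell. The imprinted count was 3 without gd19.5 replicate 2, the growth factor count 2 without gd19.5 replicates 1, 2 and 3, and the count of the 14 activin genes 1 without gd19.5 replicates 1, 2 and 3. *Sgce* lost its call without gd19.5 replicate 2 (adjusted p = 0.0554). *Ascl2* lost its call without gd16.5 replicate 2 or gd19.5 replicates 2 and 3 (adjusted p up to 0.0808). *Sfmbt2* and *Inhbb* lost their calls without gd16.5 replicates 1 and 3 or gd19.5 replicates 1, 2 and 3 (adjusted p up to 0.170). Still other calls were as fragile. *Pappa2*, *Igf2bp1* and *Fstl3* lost their calls without gd19.5 replicates 1, 2 and 3 (adjusted p up to 0.108).

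Few genes of the next groups were called, with 3.25% of all genes tested rising and 3.97% falling. Of 31 complement and coagulation genes 2 rose and 2 fell. *C1s1*, a protease of the first complement component, rose from 11.4, 12.1 and 14.2 CPM to 26.3, 26.5 and 43.5 CPM (log2 fold change 1.35, SE 0.199, adjusted p = 0.00722). *Cd55*, which dismantles complement convertases on cell surfaces, rose from 153 to 263 CPM (log2 fold change 0.78, adjusted p = 0.0124). *Plau* fell, as given above, with an annexin. *Anxa5*, an anticoagulant of syncytial surfaces, fell from 403 to 315 CPM (log2 fold change -0.35, adjusted p = 0.0408). *C1s1* has a copy, *C1s2*, with 96.0% identical transcript letters. Of 8 genes of the C1qtnf family *C1qtnf6* passed, from 87.1, 74.5 and 93.2 CPM at gd16.5 to 61.8, 65.1 and 66.4 CPM at gd19.5 (chromosome 15, 78523346 to 78531416, minus strand; log2 fold change -0.40, SE 0.0893, adjusted p = 0.0325). Its stages did not overlap, and its call was lost in 8 of 15 alternatives. These are RNA levels, and the study describes CTRP6 protein in placenta and serum as rising gradually over gestation. Of 19 clock genes *Nr1d2* rose (log2 fold change 0.32, adjusted p = 0.0459) and *Bhlhe41* fell (-0.44, adjusted p = 0.0440), with collection times of day not given in the sources used here. Of 23 immediate early genes 2 rose. *Ier3* rose from 45.4 to 64.8 CPM (log2 fold change 0.51, adjusted p = 0.00722). *Myc*, a driver of cell growth, rose from 4.86 to 8.51 CPM (log2 fold change 0.81, adjusted p = 0.0260). *Anxa5* and *Nr1d2* lost their calls without gd16.5 replicates 1, 2 and 3 or gd19.5 replicates 1, 2 and 3 (adjusted p up to 0.164). *C1qtnf6* lost its call without gd16.5 replicate 1 or gd19.5 replicates 1, 2 and 3 (adjusted p up to 0.113). *Bhlhe41* lost its call without gd16.5 replicates 1 and 3 or gd19.5 replicates 1, 2 and 3 (adjusted p up to 0.155). Further calls rested on single libraries. *Myc* lost its call without gd16.5 replicates 1 and 2 or gd19.5 replicates 1 and 2 (adjusted p up to 0.102). Counts of called genes were 0 without gd16.5 replicate 1 or gd19.5 replicates 1, 2 and 3 and 1 without gd16.5 replicates 2 and 3 for the clock, 0 without gd16.5 replicate 1 or gd19.5 replicates 1, 2 and 3 and 2 without gd16.5 replicate 3 for the C1qtnf family and 1 without gd16.5 replicate 2 or gd19.5 replicates 1 and 2 and 4 without gd16.5 replicate 3 for the immediate early genes.

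Levels at the 2 earlier stages place the late changes. Means ± SD of 3 WT libraries at gd10.5 and gd14.5 and then gd16.5 and gd19.5 were normalized over all 24 libraries. They are given as levels without a test, since both late stages share their libraries with the comparison above. *Gzmd* was at 1650.0 ± 522, 421 ± 105, 171 ± 36.3 and 63.9 ± 11.52 CPM. *Prf1* was at 444 ± 107, 81.0 ± 18.9, 28.8 ± 8.32 and 10.6 ± 1.90 CPM. Both were highest at gd10.5 and lower at each later stage. *Gcm1* was at 6.81 ± 1.97, 30.2 ± 3.73, 30.1 ± 3.55 and 7.13 ± 3.30 CPM, with close levels at the 2 middle stages. *Aplnr* was at 22.3 ± 1.30, 37.2 ± 2.56, 13.3 ± 1.68 and 2.12 ± 0.114 CPM, with its highest level at gd14.5. *Slc4a1* was at 39.9 ± 4.90, 15.3 ± 2.45, 20.1 ± 3.68 and 5.35 ± 1.76 CPM, and its gd14.5 and gd16.5 levels lay between the outer stages.

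Among the genes that rose, *Doxl1* was at 324 ± 92.3, 19.8 ± 7.63, 57.1 ± 17.4 and 367 ± 51.7 CPM in the same order, high at both ends of the series. *Nppb* was at 2.13 ± 0.0635, 1.87 ± 0.509, 3.13 ± 0.693 and 32.2 ± 13.9 CPM. *Prl5a1* was at 9.97 ± 1.73, 6.46 ± 0.427, 38.5 ± 19.1 and 147 ± 28.8 CPM. For *Nppb* the first 3 stages differed by less than the SD at gd19.5, and *Prl5a1* was lowest at gd14.5. *Inhba* was at 66.7 ± 22.9, 327 ± 20.8, 521 ± 13.8 and 1029 ± 113 CPM, higher at every later stage. *Prl3d1*, the giant cell hormone gene, was at 1590.0 ± 308, 17.9 ± 2.77, 20.5 ± 6.24 and 53.03 ± 9.40 CPM, with a gd19.5 level far below that of gd10.5. *Mki67* was at 176 ± 28.3, 54.6 ± 7.57, 16.1 ± 2.68 and 10.1 ± 0.847 CPM, with its highest level at gd10.5.

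**Figure D4:**
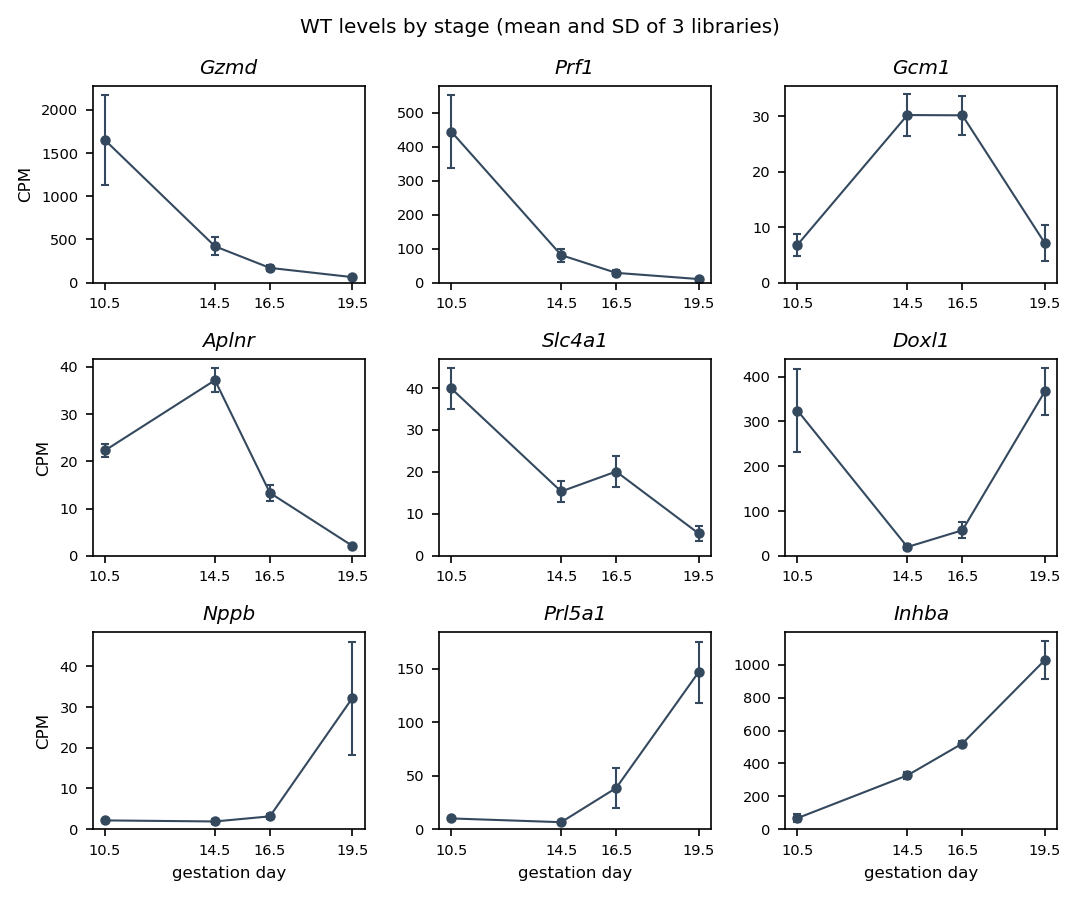
Level (CPM, mean and SD of 3 WT libraries, y axis from 0) of 9 genes by gestation day (x axis). *Gzmd* and *Prf1* are highest at gd10.5, *Gcm1* and *Aplnr* peak in the middle of the series, *Doxl1* is high at both ends, and *Nppb*, *Prl5a1* and *Inhba* are highest at gd19.5.

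The same 2 stages in *C1qtnf6*-KO animals gave a second set of 6 libraries that are separate from those of WT. KO replicates carry the numbers 1 to 3 of the sample descriptions here, while the sample titles number them 3 to 5. *C1qtnf6* itself was at 0.976 to 0.496 CPM in KO, against 84.9 to 64.4 CPM in WT. Between gd16.5 and gd19.5, 254 of 17348 genes tested in KO were DEGs (1.46%), 103 higher (0.594%) and 151 lower (0.870%), and 950 genes (5.48%) passed at an adjusted p under 0.05. The KO counts moved with single libraries, to 34, 18 and 7 higher and 24, 36 and 21 lower without KO gd19.5 replicates 1, 2 and 3, and to 446 lower without KO gd16.5 replicate 3. Of the 368 WT DEGs 356 were also tested in KO, and 316 changed in the same direction there (88.8%), against 56.8% of the other genes tested in both. DEGs of both genotypes in the same direction numbered 80, which is 21.7% of the WT DEGs and 31.5% of the KO DEGs, and 1 WT DEG, the collagen-processing gene *Pcolce2*, passed in KO in the opposite direction (1.51 in KO, -1.83 in WT, interaction adjusted p = 0.136). *Pcolce2* was at 1 CPM or less in all WT libraries, and its WT call was lost without gd16.5 replicates 1, 2 and 3 or gd19.5 replicates 1 and 3. KO gd16.5 replicates 1 and 2 also held yolk sac transcripts, with summed levels of 9367 and 26927 CPM. The genotype-by-stage interaction, which tests whether the change from gd16.5 to gd19.5 differs between WT and KO, passed for 0 of 17959 genes in edgeR, with a smallest adjusted p of 0.0837 and 2821 genes (15.7%) at an unadjusted p under 0.05. DESeq2 gave 135 genes. Without WT gd16.5 replicate 1 edgeR gave 4, *A930004J17Rik*, *Kcnq1ot1*, *Prl7c1* and *Spaca6*, each at an adjusted p of 0.0429. Their change from gd16.5 to gd19.5 was lower in KO than in WT (KO minus WT of -1.65, -1.26, -1.675 and -1.576 on the log2 scale). These 4 and *Pcolce2* were named after their values were seen.

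Several large WT changes had counterparts in KO. *Doxl1* rose from 85.9 to 461 CPM in KO (log2 fold change 2.43, adjusted p = 0.0133). *Igfbp6* rose from 18.6 to 58.4 CPM in KO (log2 fold change 1.65, adjusted p = 0.0214). *Dio2* rose from 4.90 to 19.2 CPM in KO (log2 fold change 1.97, adjusted p = 0.0323). *Inhba* rose from 513 to 1201 CPM in KO (log2 fold change 1.23, adjusted p = 0.0165). Interaction adjusted p for these genes was 0.614 or more. *Aplnr* fell from 8.11 to 2.99 CPM in KO (log2 fold change -1.42, adjusted p = 0.0439).

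The perforin and granzyme genes that fell in WT did not pass in KO. *Gzmd* was at 50.1 to 46.3 CPM in KO (-0.11) against 162 to 61.3 CPM in WT, and the interaction was 1.29 on the log2 scale (adjusted p = 0.163). *Prf1* was at 7.42 to 6.73 CPM in KO (-0.14), with an interaction of 1.29 (adjusted p = 0.194). Of the other members of the list 2 passed in KO, as in WT. *Il2rb* fell from 76.7 to 56.7 CPM in KO (log2 fold change -0.44, adjusted p = 0.0353). *Il18rap* rose from 2.49 to 5.13 CPM in KO (log2 fold change 1.04, adjusted p = 0.0314). The median log2 fold change of the NK list was -0.16 in KO and -1.25 in WT. Likewise *Csf3r* (-0.26 in KO, interaction adjusted p = 0.136), *Sult1e1* (-0.12, 0.163) and *Slc4a1* (0.09, 0.191) had small log2 fold changes in KO that did not pass. Of 24 prolactin family genes 12 fell and 0 rose in KO (median -0.65), against 4 falls and 4 rises in WT. The list of pregnancy-specific glycoproteins and Ceacams had a KO median of -0.64, with 4 falls and 1 rise among 21 tested. No gene passed the interaction test, and differences between list medians were not tested.

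**Figure D5:**
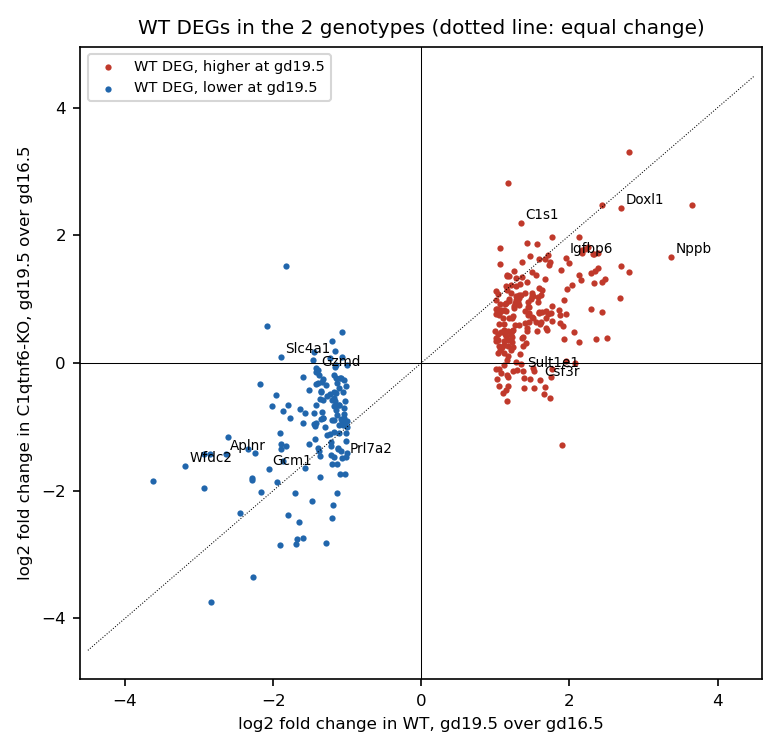
Log2 fold change from gd16.5 to gd19.5 in WT (x axis) against that in *C1qtnf6*-KO (y axis) for the 356 WT DEGs tested in both genotypes, 3 libraries per stage and genotype. Red genes were higher and blue genes lower at gd19.5 in WT, and the dotted line marks equal change. In all, 316 points lie in the 2 quadrants of equal sign.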

How the data were processed

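Paired-end 150 bp reads of polyA RNA from a strand-specific kit were, per the labels and the study's methods, trimmed with Trim Galore 0.6.4, aligned to GRCm38 with STAR 2.7.3a and counted per gene with featureCounts of Subread 2.0.0 at default settings, which ignore strand and drop reads that map to several places. The authors deposited the raw counts as 1 table of 55401 genes by 24 libraries, and every value here was computed from those counts.

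Genes were kept by edgeR filterByExpr, which asked for about 10 counts, scaled to library size, in at least 3 libraries and 15 in total. Library sizes were scaled by TMM. The 3 WT gd19.5 libraries were tested against the 3 WT gd16.5 libraries by edgeR 4.0.16 (quasi-likelihood, R 4.3.3). The study's methods name DESeq2, which is run here as an alternative (1.42.0), as is limma 3.58.1 with voom. KO libraries were fitted the same way, and the interaction over 12 libraries. CPM are counts scaled to the TMM-adjusted library total. Libraries held 22204068 to 27138870 counts, which limits the precision of genes of a few reads. In 250-base promoters of RefSeq GRCm38.p6, motifs were counted by exact match; transcript likeness is from blastn 2.17.0 on GENCODE M21. On simulated counts with 200 genes changed by 2 on the log2 scale, the WT test recovered 94% of them over 16980 genes with 3 false calls, and the interaction test 83.5% over 17710 genes with 6 false calls. WT calls there were DEGs. The simulation held no smaller changes and no library differences such as yolk sac or Y-linked content. These rates therefore do not describe calls of smaller changes or the result of the interaction test on the real libraries.

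The genes named are the 12 largest rises and falls among DEGs at 5 CPM or more with stages that do not overlap, up to 4 members per list with the smallest p, 14 genes that are always reported, and members of lists described one by one. The comparison and the 44 gene lists were chosen with earlier results of these data known. Alternatives were another scaling, no or a stricter filter, all 24 libraries, a replicate block, a Y-linked covariate, other tools, no fold threshold and leaving out each library. Levels at gd10.5 and gd14.5 are given without a test, and some called genes are not reported here.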

Additional observations from a re-analysis of the deposited data

How the results depend on the processing

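Main counts were 218 WT DEGs higher and 150 lower. Without an expression filter 360 were lower, and without the fold threshold 562 were higher and 686 lower. Leaving out 1 library at a time gave 102 to 201 higher and 84 to 170 lower, with the lowest counts without gd19.5 replicates 2 and 3; the cause was not tested. Replicate numbers are shared between stages, but same-numbered libraries did not deviate together (correlations of -0.31 to -0.0023), and no library correlated best with its own number; with the number as a replicate block 121 were higher and 111 lower. In KO, where the main counts were 103 higher and 151 lower, the counts were 206 and 591 without a filter, 159 higher with a Y-linked covariate, 322 lower in DESeq2, 508 and 442 without the fold threshold, and 7 to 124 higher and 21 to 446 lower without 1 library. The interaction, 0 in the main test, gave 135 genes in DESeq2, 561 without a filter and 0 to 4 without 1 WT library; leaving out KO libraries was not run for it. All other alternatives stayed within 1.5 times the main counts.

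Of 2845 pairs of a named gene and an alternative, 2422 kept direction and side of the threshold, 344 lost and 69 gained a call, and 10 changed sign, none of them among the 129 named genes that passed. *Prl3b1* changed sign without gd16.5 replicate 3 (-0.0049) and gd19.5 replicate 3 (-0.015), and went up to 0.23 when 1 library was left out. *Afp* (0.68), *Apob* (0.30), *Apoa2* (0.20) and *Alb* (1.28) did so without gd16.5 replicate 1, and were otherwise as low as -4.38, -4.61, -4.46 and -4.92. *Ddx3y* did so with the Y-linked covariate (-0.22) and without gd19.5 replicate 2 (-5.11, against up to 6.47), and *Xist* without gd16.5 replicate 2 (0.059) and gd19.5 replicate 2 (0.36, against as low as -0.55 when 1 library was left out and -0.99 in limma). Among genes named in the text whose calls held without each single library, the fit over all 24 libraries ended those of *Apela*, *Cd55*, *Ceacam3*, *Col14a1*, *Ctsh*, *Cxcl12*, *Dtx1*, *Ermap*, *Fgf2*, *Flt3*, *Ghrh*, *Gzmb*, *Hpgd*, *Ier3*, *Igfbp3*, *Inhba*, *Magel2*, *Prl3c1*, *Prl3d1*, *Prl7a2*, *Psg18*, *Psg19*, *Psg25*, *Ptger3*, *Scarb1* and *Slc16a3*, and the replicate block that of *Nppc*. Depth limits genes of a few reads per library, such as *Oxtr*, which were not tested.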

Other observations

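Of the 368 WT DEGs, 317 belonged to none of the gene lists. The abundant ones are given here by level, chosen after their values were seen, as mean CPM at gd16.5 to gd19.5 with the log2 fold change. Among those that rose, besides *Doxl1*, *Doxl2* and *Ceacam-ps1*, were *Pla2g7*, the platelet-activating factor hydrolase, at 345, 398 and 247 CPM at gd16.5 and 507, 653 and 824 CPM at gd19.5 (log2 fold change 1.002, SE 0.208, adjusted p = 0.0246), *Atrnl1* (70.9 to 174 CPM, 1.30), *Gcnt1* (68.9 to 149 CPM, 1.11), which branches O-linked glycans, *Gclc* (36.01 to 79.9 CPM, 1.15), the catalytic subunit of the enzyme that limits glutathione synthesis, and *Flt3* (27.6 to 59.3 CPM, 1.10), a receptor tyrosine kinase of haematopoietic progenitors. *Gclc* was tight within both stages, at 32.1, 40.4 and 35.5 CPM and 76.7, 81.6 and 81.3 CPM (adjusted p = 0.000598). *Pla2g7*, whose change is just past the fold threshold of a DEG, kept its call in 10 of 15 alternatives and lost it without gd16.5 replicate 1 or gd19.5 replicates 2 and 3.

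Among those that fell, *Car2*, carbonic anhydrase II, was at 440.0, 471 and 393 CPM at gd16.5 and 225, 217 and 199.8 CPM at gd19.5 (log2 fold change -1.02, SE 0.0966, adjusted p = 0.00130). *Ghrh*, growth hormone-releasing hormone, which the mouse placenta is known to make, was at 240.3, 246 and 245 CPM and 109, 103 and 81.1 CPM (log2 fold change -1.32, SE 0.108, adjusted p = 0.000598), with every gd19.5 library far below every gd16.5 library. *Aldh1a3*, an enzyme of retinoic acid synthesis, was at 158, 132 and 149 CPM and 61.7, 58.97 and 37.02 CPM (log2 fold change -1.47, SE 0.173, adjusted p = 0.00338). The ion channel *Trpv2* (114 to 41.99 CPM, -1.44), *Dtx1* (81.3 to 40.1 CPM, -1.02), a regulator of Notch signalling, *Cpxm1* (75.0 to 36.1 CPM, -1.06), the lysosomal protease *Ctsh* (68.3 to 31.02 CPM, -1.14) and *Ppp2r2c* (63.9 to 31.2 CPM, -1.03), a phosphatase subunit, fell too. Stages did not overlap for these genes. *Cpxm1* lost its call without gd19.5 replicate 3.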
